A study of Mus musculus with 12 samples.

Results

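Resting splenic B cells of Runx1 c-k/o mice were compared with resting B cells of Cre-only mice before any stimulation, in 3 samples of each genotype, which are 6 of the 12 samples sequenced in the study. Of the 37991 genes in the count table, the 13538 with enough reads were tested, and all of them belong to the comparison. The cells came from spleens of mice labelled as 8 weeks old on a C57B6 background. Both groups carried the CD23-iCre transgene, which the CD23 promoter first switches on at the transitional B cell stage, and the c-k/o mice carried in addition Runx1 alleles with LoxP sites around exon 4. The cells were purified with a kit that removes non-B cells and CD43+ activated B cells, and RNA was taken at 0 h, without the anti-IgM and IL-4 that the other 6 samples received for 3 h. The question was which genes differed before activation, and what these genes do.

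RUNX1 binds DNA through its Runt domain, with CBFβ as the partner that strengthens binding, and it can raise or lower transcription depending on the cofactors it recruits. In the B lineage it is known for its part in early B cell development, where its loss blocks the step from pro-B to pre-B cell. Resting follicular B cells are small cells in G0 that circulate through the spleen and lymph nodes, read antigen with the BCR, and use chemokine receptors, lectins and inhibitory receptors to set the threshold for a response.

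The exon that the knockout removes is shown here because it decides what the Runx1 counts can report. Exon 4 of the 8-exon transcript lies at chr16:92689221-92689377 on the minus strand of mm9. It is coding, spans 157 bases, leaves a remainder of 1 when divided by 3, and is part of 5 of the 6 coding transcripts annotated for the gene.
Runx1 exon 4: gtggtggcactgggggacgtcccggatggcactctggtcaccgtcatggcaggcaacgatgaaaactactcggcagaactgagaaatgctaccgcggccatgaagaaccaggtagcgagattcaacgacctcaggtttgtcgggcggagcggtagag
The exon makes up 2.72% of the 5777 bases of that transcript, and the counts are given per gene, so they do not separate the deleted exon from the rest. Runx1 stood at 83.6, 81.8 and 86.7 CPM (counts scaled by library size and TMM factor) in the Cre-only samples and at 101, 95.7 and 103 CPM in the Runx1 c-k/o samples. The c-k/o samples were the higher ones without overlap, at a log2 difference of 0.25 that did not pass the test (adjusted p = 0.548, from the quasi-likelihood test of edgeR after Benjamini-Hochberg adjustment over all tested genes, as for all adjusted p-values given here). The gene counts are therefore no check of the deletion. Runx3 (79.7 to 98.1 CPM in Cre-only and 85.8 to 96.0 in c-k/o samples), Cbfb (134 to 135 and 126 to 153 CPM) and the barely detected Runx2 (0.911 to 2.17 and 0.863 to 1.64 CPM) overlapped between the genotypes. Of 10 tested genes of the RUNX family and its partners, none was called. When 1 RUVs factor for unwanted variation was added, 1 of the 10 was called higher in edgeR and 1 in DESeq2.

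The 6 libraries held 14442251 to 19541154 counts on genes, and 3 counts, taken as the floor of detection, equal 0.145 to 0.199 CPM. Runx1 c-k/o replicate 2 stood apart from the other samples. Its counts deviated from those of its fellow replicates by 27.9 and 34.1 times the sampling variance, against 3.70 to 5.50 times for the 4 other pairs of replicates. On the scale of log2 of CPM plus 1, 199 of its genes lay over 2-fold from the mean of its fellows, against 13 to 51 in the other samples. Genes that rise on activation were among these. Il2ra, the α-chain of the IL-2 receptor, was at 39.4 CPM in this sample and at 4.05 to 6.51 CPM in the other 5, beside a mean of 339 CPM in 3-h Cre-only cells, and Slc7a5, Srm, Cish, Bcat1 and Batf, all picked after their values were seen, showed the same order. What set this sample apart was not tested, and results are given with and without it. The study describes the samples as biological replicates, and the p-values measure the spread between them. In bulk RNA, fewer cells of a type and less RNA per cell cannot be told apart.

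Before activation 202 genes, 1.49% of those tested, differed between the genotypes. In the knockout 99 of them were higher (0.731%) and 103 were lower (0.761%). The median difference on the log2 scale was 1.02 among the higher and −0.91 among the lower genes, against 0.03 over all tested genes, and the smallest difference called was 0.37. A difference of over 1 on the log2 scale was seen in 52 higher and 46 lower genes, and one of over 2 in 23 and 13. In all 202 the 3 samples of one genotype lay above the 3 of the other, which was so for 23.7% of all tested genes. The called genes covered a wide range of levels, with 43 under 5 CPM in both groups and 30 over 100 CPM in at least one. Without Runx1 c-k/o replicate 2, 140 genes were called (1.01% of 13836 tested), 126 of them from the 202 (64 higher and 62 lower), all 202 kept their direction, and the median shift of their log2 difference was 0.06. Leaving out any one of the other 5 samples left between 81 and 129 genes called, and 64 of the 202 kept their call in every alternative that gave them a value.

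**Figure D1:**
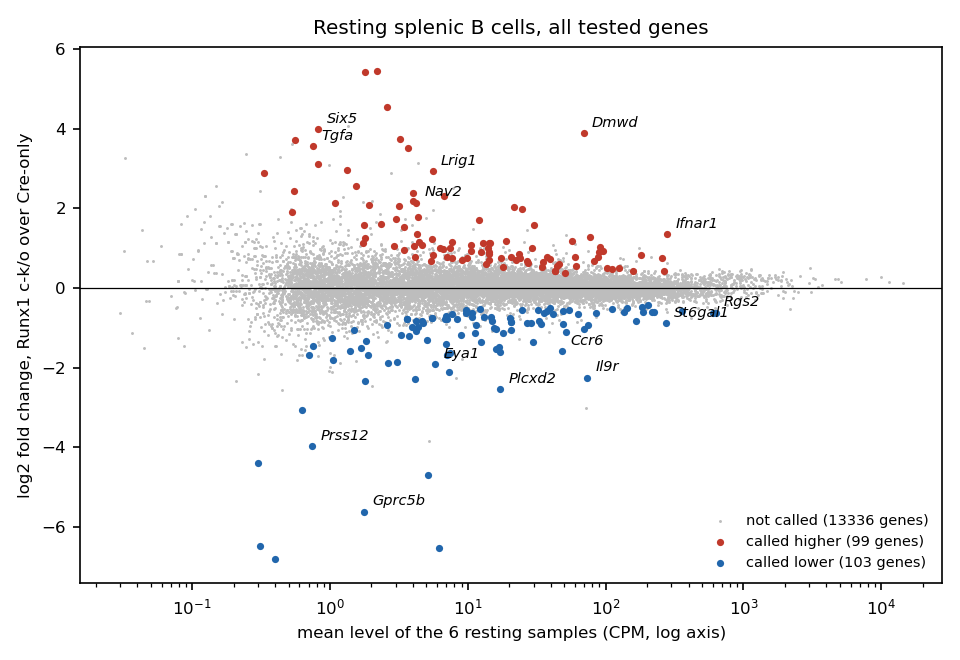
Log2 fold change of Runx1 c-k/o over Cre-only resting B cells (y axis) against the mean level of the 6 samples in CPM (x axis, log scale) for each of the 13538 tested genes. Red and blue points are the 99 genes called higher and the 103 called lower, which lie at low and high levels alike, and grey points did not pass the test.

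Sorted by what their products do, a sorting made by hand after the calls were known, the 202 genes fell into many small groups. Groups led by lower genes included those for glycans, proteoglycans and sphingolipids (1 higher, 10 lower), mitosis, DNA replication and repair (1 and 9), membrane transporters (3 and 9) and G protein-coupled receptors with their regulators (3 and 8). Groups led by higher genes included metabolic enzymes and protein folding (9 higher, 2 lower), cytokines, growth factors and their receptors (9 and 4), regulators of small GTPases (8 and 4), transcription regulators and RNA-binding proteins (7 and 3) and the interferon response with nucleic acid sensing (5 and 0). Kinases, phosphatases and adaptors (8 and 5) and cytoskeletal genes (6 and 6) were more evenly split, and 24 genes were not classed. Without Runx1 c-k/o replicate 2 the calls held for 7 of 11 glycan, 3 of 10 mitosis and DNA, 9 of 12 transporter and 8 of 11 receptor genes. They held for 6 of 11 metabolic, 7 of 13 cytokine, 9 of 12 GTPase regulator, 9 of 10 transcription and 2 of 5 interferon genes. In the more evenly split groups 12 of 13 and 7 of 12 held. No test was made of these groups, since they were formed from the called genes. The lists of pathway genes described with each group below were written by hand with earlier results of these data known. Each holds all of its members that could be tested, called or not. Their counts are given beside the 1.49% of all genes, and no test was made of them.

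**Figure D2:**
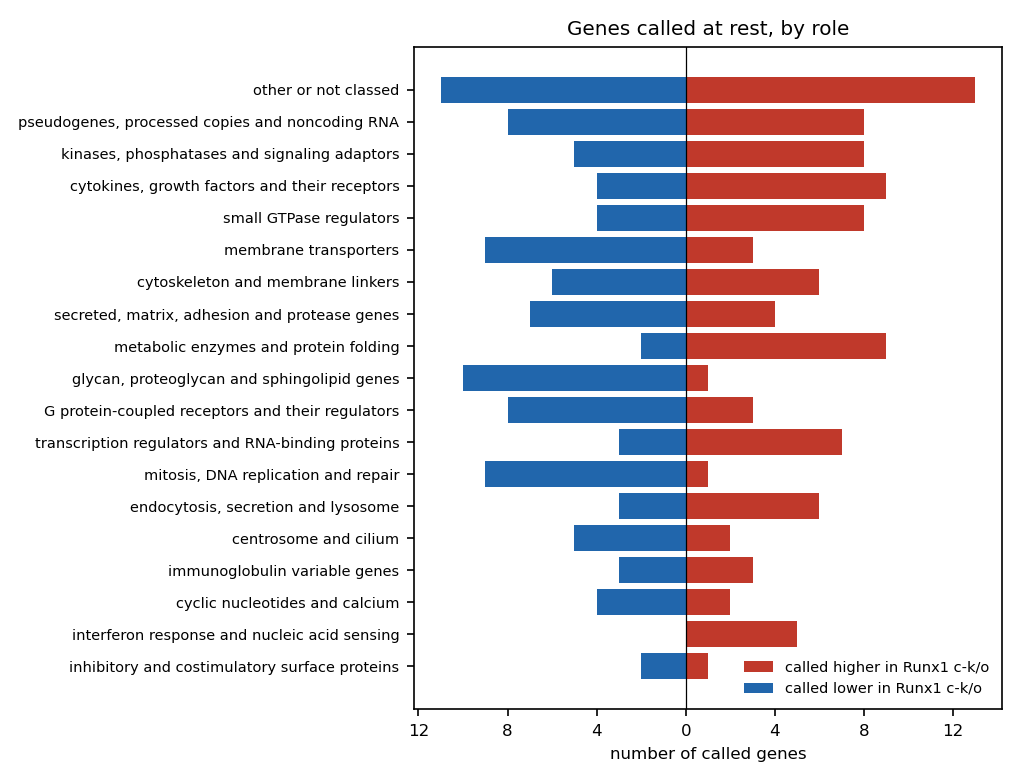
Number of genes called lower (blue, to the left) and higher (red, to the right) in resting Runx1 c-k/o B cells in each class of function. Glycan genes, transporters and cell division genes extend mainly to the left, while metabolic, cytokine and GTPase regulator genes extend mainly to the right.

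Of the receptors and ligands for cytokines and growth factors, the type I IFN receptor chain gene Ifnar1 combined a high level with a large difference. It stood at 163, 159 and 153 CPM in the Cre-only samples and at 449, 362 and 398 CPM in the Runx1 c-k/o samples. The groups were far apart, at a log2 difference of 1.35 ± 0.10 (SE, adjusted p = 3.25e-05), and the gene was called under all 14 alternatives. Il10rb, the chain shared by the receptors for IL-10, IL-22 and type III IFN, lies near Ifnar1 on chromosome 16. It had the smallest difference of all called genes, from 42.7, 46.1 and 44.4 to 54.2, 61.0 and 57.1 CPM (0.37 ± 0.08, adjusted p = 0.0397). Its model overlaps that of Ifnar2 on the same strand, and its call was lost without Runx1 c-k/o replicate 2 (adjusted p = 0.124).

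The receptor for IL-9 moved the other way. Il9r was at 93.8, 95.4 and 176 CPM in Cre-only and at 24.1, 24.3 and 28.1 CPM in Runx1 c-k/o cells, so that even the lowest control exceeded the highest knockout sample over 3-fold (log2 difference −2.25 ± 0.28, adjusted p = 0.00165). Cre-only replicate 3 was the highest of the 6 samples. Stat4, which carries signals of IL-12, was lower at 34.6, 33.4 and 28.7 CPM against 47.5, 52.0 and 53.9 CPM (−0.66 ± 0.12, adjusted p = 0.0204). Of the 54 tested genes for cytokine receptors, JAK, STAT and SOCS proteins, 2 rose and 2 fell, and the median over the list was 0.02. Ifnar1 and Il9r were the 2 called under the replicate block and without any one Cre-only sample or c-k/o replicate 3, where Stat4 was lost (adjusted p from 0.0539 to 0.109).

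Among growth factor genes, Lrig1, whose product is known to restrain ErbB receptors, rose from 1.25, 1.25 and 1.36 to 11.8, 9.57 and 8.10 CPM (2.92 ± 0.21, adjusted p = 2.87e-05). Tgfa, a ligand of the EGF receptor, had 6 reads in all 3 Cre-only samples together and 66 in the Runx1 c-k/o samples, a 12.6-fold difference in depth-corrected counts with a 95% interval from 5.48 to 35.5 that, like the other intervals of this kind, covers counting error only. Each control had 2 reads of Tgfa, below the floor of 3. Rell1, a membrane protein of the RELT group, fell from 23.6, 27.9 and 22.6 to 10.7, 11.4 and 11.6 CPM (−1.14 ± 0.13, adjusted p = 0.000815). Genes of this class outside the rule for naming, picked after their values were seen, were the cytokine gene Il18 (higher, 0.90), the hormone gene Stc1 (higher, 2.55), the receptor tyrosine kinase gene Ltk (higher, 0.85) and the ligand gene Tgfb3 (lower, −0.78), each log2 difference with an adjusted p between 0.00829 and 0.0467.

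Genes induced by IFN lay slightly above the controls as a list. Of the 76 tested in resting cells, 5 rose and 0 fell by the test, 65 lay above 0, and the median log2 difference was 0.20, against 0.03 over all genes. In 37 of the 76 the 3 Runx1 c-k/o samples all lay above the controls, and in none below, beside 12% and 11.6% of all tested genes. Irf7, a transcription factor of the IFN response, was at 62.0, 52.7 and 64.5 CPM in Cre-only and at 133, 117 and 113 CPM in Runx1 c-k/o cells (1.02 ± 0.14, adjusted p = 0.00289). Cgas, the sensor of cytosolic DNA, rose from 1.59, 1.99 and 1.74 to 5.10, 5.56 and 4.58 CPM (1.52 ± 0.17, adjusted p = 0.000757). These 2 kept their call whichever of the 6 samples was left out. Without c-k/o replicate 2 Oas1a, a sensor of double-stranded RNA (0.74), Usp18, which removes ISG15 and dampens the receptor (0.74), and Ifi27l2a (0.91), whose model overlaps that of Ifi27l2b, were not called (adjusted p from 0.0758 to 0.121). Between 2 and 4 genes of the list were called when one sample was left out, 10 by DESeq2's Wald test, and 16 and 21 with 1 RUVs factor in edgeR and DESeq2, all of them higher. The median over the list was 0.24 without that sample and lay between 0.17 and 0.28 in all alternatives.

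Of the 11 called genes classed with G protein-coupled receptors and their regulators, 8 were lower. Ccr6, the receptor for the chemokine CCL20, was at 66.7, 77.2 and 74.2 CPM in Cre-only and at 27.6, 18.4 and 26.5 CPM in Runx1 c-k/o samples (−1.59 ± 0.20, adjusted p = 0.00157). Gpr171 was at 98.9, 94.4 and 98.8 against 46.2, 57.7 and 50 CPM (−0.93 ± 0.11, adjusted p = 0.00157). Ccr6 was lowest in c-k/o replicate 2, and without that sample its log2 difference was −1.43. Both genes kept their call under all 14 alternatives. Gpr137b, of the lysosomal membrane, and the orphan receptor gene Gpr146 were lower by smaller amounts (−0.63 and −0.78). Cnr2, the cannabinoid receptor of immune cells, was higher at 340, 269 and 360 CPM against 193, 196 and 186 CPM (0.75 ± 0.12, adjusted p = 0.00919), and Hcrtr2, an orexin receptor found here at 4.29 to 6.04 CPM in the controls, was higher by 1.00. The call of Cnr2 was lost without Cre-only replicate 1, Cre-only replicate 3 or c-k/o replicate 3 (adjusted p from 0.0501 to 0.0574). Of 95 tested receptors 2 rose and 4 fell, 47 lay above and 48 below 0, and the median was −0.02. Leaving out Cre-only replicate 1 or c-k/o replicate 3 left 2 of them called, and leaving out Cre-only replicate 3 left 3.

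Gprc5b, an orphan receptor named here after its values were seen, came close to absence in the knockout. It had 185 reads in the 3 Cre-only samples, at 1.54, 7.12 and 1.74 CPM, and 3 reads in the 3 Runx1 c-k/o samples. The ratio was 53.9, with a 95% counting interval from 18.2 to 264. Cre-only replicate 2 supplied 125 of the 185 reads, against 32 and 28 in Cre-only replicates 1 and 3, so the size of the ratio depends on that sample.

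RGS proteins speed up GTP hydrolysis by Gα subunits and so shorten signals of these receptors. Rgs2 was at 828, 734 and 722 CPM in Cre-only and at 446, 517 and 523 CPM in Runx1 c-k/o samples (−0.62 ± 0.13, adjusted p = 0.0434). Rgs13, which is known from germinal centre B cells and lies beside Rgs2 on chromosome 1, was at 4.63, 5.12 and 5.89 against 1.93, 3.10 and 1.66 CPM (−1.22 ± 0.25, adjusted p = 0.0374). Rgs2 was one of the most abundant of the called genes and Rgs13 one of the scarce ones. Of the 12 RGS genes tested, these 2 fell and none rose, 10 lay below 0, and the median was −0.42 (−0.43 to −0.31 in the alternatives). Both calls depended on the full set of samples. Rgs2 was lost without any one of the 6 samples (adjusted p from 0.0738 to 0.203), Rgs13 without any one but c-k/o replicate 2 (from 0.0879 to 0.158), and both under the replicate block (0.0788 and 0.0815). Gnaq, a Gα subunit gene picked after its values were seen, was higher by 0.43 (adjusted p = 0.0493).

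Surface proteins that pass inhibitory signals changed in both directions. Cd200, the ligand of the inhibitory receptor CD200R, rose from 33.0, 34.2 and 37.7 to 83.1, 75.6 and 78.6 CPM (1.18 ± 0.11, adjusted p = 0.000184). Btla, an inhibitory receptor of B and T cells that binds HVEM, fell from 722, 741 and 719 to 511, 410 and 495 CPM (−0.62 ± 0.10, adjusted p = 0.00829). Pdcd1lg2, which encodes the PD-1 ligand PD-L2, fell from 8.29, 10.2 and 11.5 to 3.51, 4.52 and 3.32 CPM (−1.40 ± 0.15, adjusted p = 0.000757). All of these calls held without Runx1 c-k/o replicate 2, and that of Btla was lost without Cre-only replicate 2 (adjusted p = 0.0524). They were the called members among 62 inhibitory and costimulatory genes, whose median was 0.07, and 0.01 without c-k/o replicate 2. Of 36 genes of the TNF and TNF receptor families and 30 MHC genes none was called by edgeR, with medians of 0.06 and 0.17. At an unadjusted p under 0.05 stood 5 and 8 of them, and the alternatives called at most 2 and 3 as higher. The alternatives called at most 1 MHC gene as lower and no gene of the TNF list. Over all tested genes 1496 of 13538 stood at an unadjusted p under 0.05. In the MHC list 13 genes had all 3 c-k/o samples above the controls and 2 below, beside 12% and 11.6% of all tested genes. Without c-k/o replicate 2 the medians of the TNF and MHC lists were 0.01 and 0.09.

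**Figure D3:**
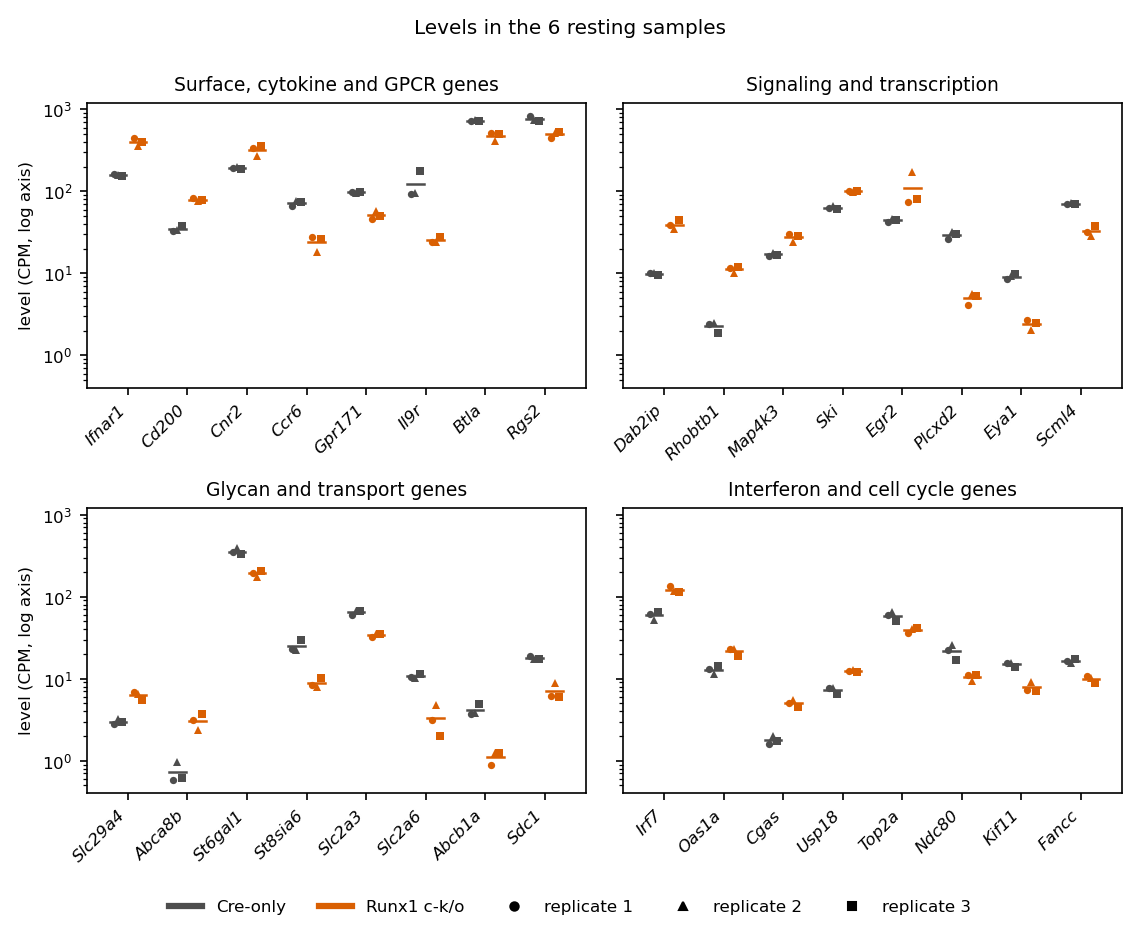
Level in CPM (y axis, log scale) of called genes of 4 kinds in each of the 3 Cre-only (grey) and 3 Runx1 c-k/o (orange) resting samples, with replicates 1, 2 and 3 as circles, triangles and squares and the group mean as a bar. The genotypes do not overlap in any of the genes shown (Map4k3 was picked after its values were seen), and Egr2 in Runx1 c-k/o replicate 2 (170 CPM) and Il9r in Cre-only replicate 3 (176 CPM) lie farthest from their own group.

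Within the BCR signaling cascade the genes called higher were the kinase genes Fyn, Yes1 and Zap70, the calcium regulator gene Saraf and the PI3K subunit gene Pik3r6. Fyn, a Src-family kinase, was at 63.5, 62.6 and 66.6 CPM in Cre-only and at 93.8, 147 and 91.5 CPM in Runx1 c-k/o cells (0.79 ± 0.16, adjusted p = 0.0378, and 0.0419 without c-k/o replicate 2, its highest sample). Yes1, another member of that family, rose from 0.916, 1.02 and 1.30 to 2.64, 2.33 and 2.12 CPM (1.14 ± 0.18, adjusted p = 0.00753). Zap70, the relative of Syk that T cells use, rose from 1.2, 1.59 and 1.36 to 4.80, 4.85 and 4.11 CPM (1.73 ± 0.29, adjusted p = 0.0114). Of these kinases Fyn alone was above 5 CPM. The calls of Fyn (adjusted p from 0.127 to 0.180) and Zap70 (from 0.0546 to 0.0854) were lost without any one Cre-only sample. The T cell genes Cd3e, Cd3d and Cd3g were at 0 to 0.819 CPM in the 6 samples, and the summed level of 13 T cell markers was 226 to 246 CPM in Cre-only and 229 to 240 CPM in c-k/o samples, nearly all of it from Cd2, which B cells express as well.

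Saraf, which slows store-operated calcium entry, rose from 67.7, 67.5 and 61.9 to 128, 129 and 120 CPM (0.93 ± 0.10, adjusted p = 0.00068). Pik3r6, a regulatory subunit of PI3Kγ, rose from 0.385, 0.399 and 0.434 to 1.87, 1.49 and 1.99 CPM (2.12 ± 0.34, adjusted p = 0.00753), and the adaptor gene Skap1 fell from 2.99, 2.79 and 2.05 to 0.937, 1.36 and 0.796 CPM (−1.34 ± 0.25, adjusted p = 0.0188). Saraf stood out by its level and by nearly identical values within each genotype. Of the 92 cascade genes tested 5 rose and 1 fell, 58 lay below 0 and the median was −0.07 (−0.03 without c-k/o replicate 2). DESeq2's Wald test called 6 higher and 7 lower, and 1 RUVs factor called 6 higher with 10 lower in edgeR and 11 lower in DESeq2. All 6 called genes were also called without Runx1 c-k/o replicate 2, but 1 member of the list was called without Cre-only replicate 1 and 2 without Cre-only replicate 2. The call of Skap1 was lost without Cre-only replicate 1 or 2 and without c-k/o replicate 1 or 3.

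Other signaling enzymes included both strong losses and gains. Plcxd2, a phospholipase C-like gene, was at 26.6, 31.5 and 30.0 CPM in Cre-only and at 4.16, 5.62 and 5.31 CPM in Runx1 c-k/o samples (−2.55 ± 0.18, adjusted p = 2.8e-05). Eya1, a phosphatase that also acts as a transcriptional coactivator, fell from 8.43, 9.28 and 9.73 to 2.69, 2.07 and 2.46 CPM (−1.92 ± 0.18, adjusted p = 0.000263). Pip5k1b, which makes the phospholipase C substrate phosphatidylinositol 4,5-bisphosphate, fell from 12.4, 14 and 11 to 4.92, 4.98 and 6.44 CPM (−1.19 ± 0.17, adjusted p = 0.00469). Among the higher genes were the tyrosine kinase gene Fer, from 1.11, 1.08 and 1.49 to 5.27, 3.68 and 6.30 CPM (2.05 ± 0.27, adjusted p = 0.00278), and Dusp3, a phosphatase of MAPKs, from 20.0, 20.8 and 21.2 to 31.9, 35.3 and 31.9 CPM (0.68 ± 0.08, adjusted p = 0.00144). Of 117 protein phosphatases tested, Dusp3 and Eya1 were the called ones. The Ste20-type kinases Map4k3 (higher, 0.70) and Tnik (lower, −0.63) were picked after their values were seen, and in this whole class 12 of 13 calls held without c-k/o replicate 2.

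Regulators of Ras and its relatives were higher where edgeR called them without an RUVs factor, while DESeq2's Wald test called 7 higher and 1 lower and 1 RUVs factor gave 7 and 2 in edgeR and 8 and 2 in DESeq2. Dab2ip, a GTPase-activating protein for Ras, rose from 10, 10.1 and 9.61 to 38.5, 35.1 and 44.3 CPM (1.99 ± 0.13, adjusted p = 1.74e-05). Of the others, Rasa4, also a Ras GTPase-activating protein (0.74), Rap1gap, which does the same for Rap1 (1.13), Rasgrf2, an exchange factor for Ras (0.94), and Rgl1, an exchange factor for Ral (0.79), were higher with adjusted p from 0.00829 to 0.0287. The called genes thus included activators and inactivators of these GTPases. Of 67 tested, 5 rose and 0 fell, while the median was −0.01, and without Runx1 c-k/o replicate 2 the call of Rap1gap was lost (adjusted p = 0.078). Of the list, 1 gene was called without Cre-only replicate 2 or 3, and 2 were called without Cre-only replicate 1 or c-k/o replicate 3.

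Other genes of this class changed in both directions. Rhobtb1, a gene with BTB domains, rose from 2.41, 2.51 and 1.86 to 11.7, 10 and 12.1 CPM (2.31 ± 0.19, adjusted p = 9.43e-05). The exchange factor gene Plekhg5 was higher (1.35), while the related gene Plekhg3 (−0.82) and the formin gene Daam1 (−0.98) were lower. Acap1, a GTPase-activating protein for Arf6 with a part in integrin recycling, was at 411, 427 and 457 CPM in Cre-only and at 308, 283 and 271 CPM in Runx1 c-k/o samples (−0.59 ± 0.09, adjusted p = 0.00818). Acap1 was among the most abundant genes called, and it and Ipcef1 (−1.06) were the 2 called of 63 Arf regulators. Ipcef1 lost its call without any one of the 6 samples (adjusted p from 0.115 to 0.219), and Acap1 without Cre-only replicate 3 (0.0503) or c-k/o replicate 3 (0.0538).

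Enzymes and channels for cyclic nucleotides and calcium were called in both directions. Called were 4.65% of 43 phosphodiesterase, cyclase and protein kinase A genes and 3.03% of 99 channel genes, beside 1.49% of all tested genes. Pde7a, which degrades cAMP, fell from 233, 224 and 222 to 153, 142 and 154 CPM (−0.60 ± 0.09, adjusted p = 0.00643). Pde2a, which degrades cAMP and cGMP, rose from 148, 127 and 115 to 261, 187 and 241 CPM (0.82 ± 0.16, adjusted p = 0.0287). The call of Pde7a held in all 14 alternatives. That of Pde2a was lost under the replicate block (adjusted p = 0.0709) and without any one sample but c-k/o replicate 2 (from 0.0552 to 0.153). The low channel genes, the ryanodine receptor Ryr2 (−1.32), Trpm4 (−0.79) and the calcium channel subunit Cacna2d2 (−1.58), were lower. Of the 99 channel genes tested these 3 were called by edgeR, 5 stood higher at an unadjusted p under 0.05, and DESeq2's Wald test called 2 as higher. None of the 99 was called without Cre-only replicate 3 or without c-k/o replicate 3, and 1 without Cre-only replicate 2 or without c-k/o replicate 2.

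Of the 10 called genes classed as transcription regulators or RNA-binding proteins, 7 were higher. Ski, a corepressor of SMAD proteins, was at 62.1, 65.7 and 61.7 CPM in Cre-only and at 101, 98.0 and 101 CPM in Runx1 c-k/o samples (0.66 ± 0.07, adjusted p = 0.000757), the smallest standard error among the genes named here. Egr2, an immediate early gene of BCR signaling, was at 42.4, 46.6 and 44.6 against 74.6, 170 and 81.2 CPM (1.29 ± 0.25, adjusted p = 0.0222). The sample at 170 CPM was Runx1 c-k/o replicate 2, and without it the log2 difference was 0.80 (adjusted p = 0.00169). The call was lost without any one of the 3 Cre-only samples (adjusted p from 0.100 to 0.123). Six5, a homeobox gene, had 5 reads in the controls and 74 in the knockout (ratio 16.9, 95% counting interval from 6.94 to 53.7), and Hopx (0.90) and the nuclear receptor gene Nr2f6 (0.77) were higher as well.

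The lower members of this class were Scml4, Elk3 and Stat4, the last given above with the cytokine genes. Scml4, a Polycomb-related gene of lymphocytes, fell from 69.4, 72.2 and 70.3 to 32.2, 28.2 and 38.1 CPM (−1.10 ± 0.15, adjusted p = 0.00281), and Elk3, a ternary complex factor of the ETS family, from 62.4, 65.1 and 64.8 to 43.6, 41.1 and 46 CPM (−0.56 ± 0.08, adjusted p = 0.0051). Both changes were well outside the spread within each genotype. Of 94 B cell and lymphoid transcription factors tested 5 rose and 3 fell, with a median of 0.00, and 2 and 3 were called without Cre-only replicate 1 or 3. Rbpms, an RNA-binding protein, rose from 6.89, 6.78 and 6.57 to 14.8, 14.1 and 13.8 CPM (1.07 ± 0.13, adjusted p = 0.00144). None of 41 NOTCH pathway genes, 25 G1 cyclins, CDKs and their inhibitors, and 22 genes of the BCL2 family was called by edgeR, with medians of −0.05, −0.09 and 0.14, the last of which was 0.00 without Runx1 c-k/o replicate 2. At an unadjusted p under 0.05 stood 3, 2 and 4 of them, beside 1496 of all 13538, and the alternatives called at most 2, 0 and 2 as higher and 1, 0 and 1 as lower.

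Glycosyltransferase and sulfotransferase genes were lower where edgeR called them, while 1 RUVs factor in DESeq2 called 1 higher and 8 lower. St6gal1, which adds the α2,6-linked sialic acid that CD22 binds, was at 347, 388 and 329 CPM in Cre-only and at 196, 176 and 208 CPM in Runx1 c-k/o samples (−0.88 ± 0.13, adjusted p = 0.00643). St8sia6, another sialyltransferase gene, fell from 23.0, 22.3 and 29.3 to 8.49, 8.01 and 10.3 CPM (−1.48 ± 0.16, adjusted p = 0.00068). B4galnt1, which makes complex gangliosides, fell from 195, 221 and 220 to 152, 158 and 149 CPM (−0.47 ± 0.08, adjusted p = 0.0108). These 3 enzymes add sugars near the ends of glycans, and the other called ones, Galnt6 (−0.56), which starts O-linked glycans, Xxylt1 (−0.56) and Manea (−0.52), act elsewhere. Of the 97 glycosyltransferases and sulfotransferases tested 6 fell and 0 rose, but the median of the list was −0.01, so that the lower level was not a property of the list as a whole. Without Runx1 c-k/o replicate 2 the call of Manea was lost (adjusted p = 0.124), and 3 of the list were called without Cre-only replicate 2, c-k/o replicate 1 or c-k/o replicate 3.

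Sdc1, the proteoglycan syndecan-1 that is high on plasma cells, fell from 18.8, 17.4 and 17.5 to 6.15, 8.98 and 5.97 CPM (−1.35 ± 0.17, adjusted p = 0.00157). The related gene Sdc4, picked after its values were seen, was lower as well, at 112 to 125 CPM against 156 to 181 CPM in the controls (−0.50, adjusted p = 0.0319, and 0.0738 without c-k/o replicate 2). Prdm1 (14.3 to 19.0 against 12.9 to 15.7 CPM), Xbp1 (61.3 to 62.3 against 69.9 to 117 CPM) and Irf4 (1312 to 1470 against 1270 to 1412 CPM), other genes of plasma cell differentiation, were not called. Of 7 plasma cell and class-switch markers tested, Sdc1 was called, 5 lay below 0 and 3 were lower at an unadjusted p under 0.05, among them the IgG genes Ighg2c (−3.84, adjusted p = 0.138) and Ighg1 (−1.84, adjusted p = 0.292). The list had 2 genes called lower under the replicate block, without Cre-only replicate 1 and without c-k/o replicate 2. The summed level of the 7 overlapped between the genotypes, at 1567 to 1698 CPM in Cre-only and 1542 to 1679 CPM in c-k/o samples.

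Membrane transporters were lower in 9 of 12 called genes. Slc2a3, the glucose transporter GLUT3, fell from 59.8, 67.0 and 66.7 to 32.6, 35.2 and 35.2 CPM (−0.91 ± 0.09, adjusted p = 0.000603). Slc2a6, of the same family, fell from 10.6, 10.2 and 11.3 to 3.16, 4.78 and 1.99 CPM (−1.69 ± 0.21, adjusted p = 0.00152). The 2 Abcb1 genes, which encode the drug efflux pump P-glycoprotein in mice, fell together, Abcb1a from 3.76, 3.87 and 4.90 to 0.879, 1.23 and 1.26 CPM (−1.89 ± 0.25, adjusted p = 0.00246) and Abcb1b by 1.86 on the log2 scale (adjusted p = 0.0106). All 4 kept their call without Runx1 c-k/o replicate 2. These neighbouring Abcb1 genes are near copies, and reads may be shared between them. The organic anion transporter gene Slco5a1 (−2.12), the organic cation transporter relative Slc22a15 (−2.34), Slc26a11 (−0.85), Slc4a11 (−0.99) and Slc49a4 (−0.57) were lower, and Slc29a4 (1.08), Slc35d2 (0.60) and Abca8b (2.09) were higher. Of 234 solute carriers 2 rose and 7 fell and the median was 0.01, and of 32 ABC transporters 1 rose and 2 fell at a median of −0.08. Without c-k/o replicate 1, 1 solute carrier was called higher and 4 lower, and without c-k/o replicate 3, 1 ABC transporter was called. Of the ABC transporters, 2 were called without any one Cre-only sample.

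Actin-binding and motor genes were lower in 5 and higher in 2 of 102 tested, and in 3 and 1 when any one sample but c-k/o replicate 1 was left out. Gsn, the actin-severing protein gelsolin, fell from 89.6, 102 and 90.7 to 44.4, 46.1 and 47.2 CPM (−1.04 ± 0.12, adjusted p = 0.00141), and the class I myosin gene Myo1f from 22.8, 22.7 and 26.2 to 7.73, 8.14 and 8.69 CPM (−1.54 ± 0.21, adjusted p = 0.00278). Anxa6, a calcium-dependent membrane-binding annexin, fell from 278, 276 and 264 to 164, 186 and 184 CPM (−0.61 ± 0.10, adjusted p = 0.00659). In each of these the samples of one genotype lay close together. Nav2, a microtubule-associated protein, rose from 1.69, 1.42 and 1.55 to 8.32, 3.68 and 8.63 CPM, with Runx1 c-k/o replicate 2 the lowest of the knockout samples (2.14 ± 0.32, adjusted p = 0.0051, and 0.000306 without that sample). Hook1 (−0.59) and Epb41 (−0.60) were lower and lost their calls without it (adjusted p = 0.0802 and 0.092). Ahnak2, a large scaffold-like protein, had 4 reads in the controls and 28 in the knockout (ratio 8.00, 95% counting interval from 2.80 to 31.4). The call of Ahnak2 was lost whichever sample was left out, while Nav2 was called under all 14 alternatives.

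Of 259 genes of endocytosis and vesicle trafficking, 5 rose and 5 fell, at a median of 0.00. None was called higher and 2 were called lower without Cre-only replicate 2, Cre-only replicate 3 or c-k/o replicate 3, and 2 and 4 were called under the replicate block. Without Cre-only replicate 1 the counts were 1 and 3, without c-k/o replicate 1 they were 1 and 5, and without c-k/o replicate 2 they were 2 and 2. Ehd3, of the endocytic recycling compartment, fell from 24.8, 30.6 and 21.9 to 8.67, 7.95 and 8.83 CPM (−1.60 ± 0.22, adjusted p = 0.00278), and Vps37b, a subunit of the ESCRT-I complex, from 252, 266 and 262 to 177, 169 and 167 CPM (−0.60 ± 0.09, adjusted p = 0.00574). Leprotl1, an endosomal membrane protein that is not on that list, rose from 20.4, 19.9 and 17.5 to 38.8, 41.7 and 35.7 CPM (1.01 ± 0.13, adjusted p = 0.00222). The retromer subunit gene Vps26b (0.76), the epsin gene Epn2 (0.98), Rab31 (0.77), Sec16b (1.15) and Sypl (0.43) were higher, and Lamp3 was lower (−1.19), as were Hook1 and Eps8l1 (−1.35), which count on this list too. Ncf1, a cytosolic subunit of the phagocyte NADPH oxidase, was lower at 170, 183 and 167 CPM against 237, 236 and 227 CPM (−0.43 ± 0.09, adjusted p = 0.0413), and was the called one among 8 oxidase genes. Its call was lost under the replicate block (adjusted p = 0.0709) and without any one sample but c-k/o replicate 2 (from 0.119 to 0.189).

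Genes of mitosis were lower as a list. Of 90 tested, 6 fell and 0 rose, 85 lay below 0, and the median was −0.45 against 0.03 over all genes. In 60 of the 90 every c-k/o sample was under every control, and in 2 above, beside 11.6% and 12% of all tested genes. Top2a, which untangles sister chromatids, was at 59.9, 65.4 and 51.3 CPM in Cre-only and at 36.5, 40.5 and 41.7 CPM in Runx1 c-k/o samples (−0.57 ± 0.12, adjusted p = 0.0383). Ndc80 (−1.04), a kinetochore component, Kif11 (−0.94), the spindle motor Eg5, Ncapg (−0.83), of condensin I, Bub1 (−0.78), a checkpoint kinase, and Spag5 (−0.71) also fell. The single calls were unstable. None of the 90 was called without Cre-only replicate 1, Cre-only replicate 2 or c-k/o replicate 3, 1 without c-k/o replicate 1, and 2 without Cre-only replicate 3 or c-k/o replicate 2. DESeq2's Wald test called 16 as lower and 1 RUVs factor called 19 in either tool. The median of the list lay between −0.49 and −0.41 in all alternatives. The summed level of the 90 genes was 1513 to 1638 CPM in Cre-only and 1266 to 1305 CPM in c-k/o samples.

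DNA replication and repair genes followed with a smaller shift. Of 80 tested, Fancc, of the Fanconi anaemia core complex (−0.72), Pclaf, a PCNA-binding protein (−0.73), and the helicase-nuclease gene Dna2 (−0.74) fell, Dclre1a, a nuclease of crosslink repair, rose (0.68), and 68 lay below 0 at a median of −0.22. Leaving out one sample left 1 or 2 of the list called. Fancc was at 16.5, 15.7 and 17.2 against 10.7, 10.3 and 8.96 CPM and was called under all 14 alternatives. Centrosome and cilium genes, grouped after the calls were known, were lower in 5 and higher in 2. Of these 7 calls, 2 held without c-k/o replicate 2. The group included Cep97 (−0.87), Ift57 (1.06) and Ift81 (1.57), which were picked after their values were seen.

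Markers of germinal centre B cells were examined beside these genes. Of 8 tested, Rgs13 fell, 7 lay below 0, and the median log2 difference was −1.06, resting on scarce transcripts. Without Cre-only replicate 2 the median was −0.69, and Rgs13 was called without c-k/o replicate 2 but lost without any one of the other 5 samples. Mybl1 was at 2.75, 4.50 and 3.72 CPM in Cre-only and at 1.29, 1.42 and 1.53 CPM in c-k/o samples (−1.36, adjusted p = 0.0564). S1pr2 (1.69 to 4.44 against 0.664 to 1.70 CPM) and Gcsam (0.530 to 3.07 against 0.323 to 0.469 CPM) did not pass either, and their controls varied widely, with replicate 2 the highest in both. The summed level of the 8 markers, dominated by Bcl6 and Neil1, overlapped, at 248 to 282 and 225 to 273 CPM. The IgG constant gene Ighg2c, at 0.867, 22.0 and 6.57 CPM in the controls and 0.465 to 0.970 CPM in the knockout, was likewise highest in Cre-only replicate 2. The part of germinal centre or cycling cells in the lower mitotic genes was not tested.

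**Figure D4:**
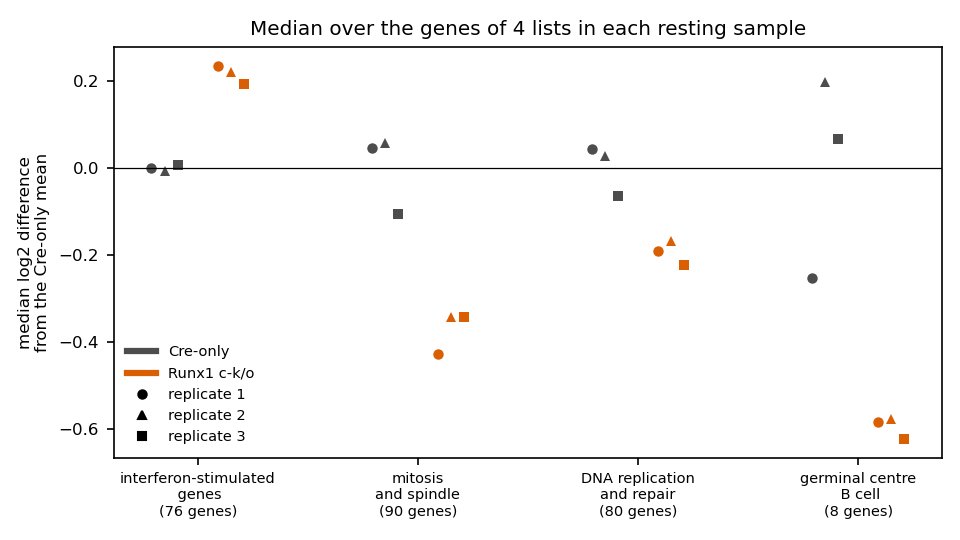
Median over the genes of 4 lists of the log2 difference of each resting sample from the Cre-only mean (y axis, log2 of CPM plus 1), with Cre-only samples in grey, Runx1 c-k/o samples in orange and replicates 1, 2 and 3 as circles, triangles and squares. The c-k/o samples lie at 0.19 to 0.23 for IFN-stimulated genes, −0.43 to −0.34 for mitosis, −0.22 to −0.17 for DNA replication and −0.62 to −0.58 for germinal centre markers, outside the range of the controls in each.

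Markers of B cells were abundant. Cd74, Ighm, Cd79a, Ms4a1 and Fcer2a stood between 895 and 13611 CPM in every sample, the summed level of 10 B cell markers was 27514 to 28564 CPM in Cre-only and 29975 to 33544 CPM in c-k/o samples, and none of the 10 was called by edgeR, with 2 at an unadjusted p under 0.05 and at most 1 called in any alternative. Marginal zone markers summed to 2141 to 2472 CPM in the controls and 2600 to 2787 CPM in the knockout, where Cr2 (818 to 1075 against 1225 to 1411 CPM) contributed most of the difference without passing the test (0.48, adjusted p = 0.147). These sums did not overlap. None of the 9 marginal zone genes was called by edgeR (3 at an unadjusted p under 0.05, and at most 2 called in any alternative). Of the 9, 7 lay above 0 and 2 below. Cd9 (20.4 to 22.1 against 23.1 to 41.2 CPM, 0.55) and S1pr3 (19.0 to 25.6 against 23.4 to 44.3 CPM, 0.60) were higher without being called. Both were highest in c-k/o replicate 2, and without it the differences were 0.29 and 0.37. Cd1d1 overlapped between the genotypes. Transitional cell markers (161 to 203 and 143 to 164 CPM) and B-1 markers (148 to 150 and 144 to 231 CPM) overlapped, the highest B-1 sum being that of c-k/o replicate 2. Of the myeloid genes, Csf1r (164 to 206 and 139 to 283 CPM) gave most of a sum that overlapped, Ly6g and Elane had at most 2 reads in any sample, and no erythroid, platelet, NK or stromal marker was called. Hba-a1 and Hbb-b1 were lowest in Cre-only replicate 2, at 9.05 and 24.6 CPM against 46.3 to 98.4 and 150 to 288 CPM elsewhere.

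Of the 11 called genes classed by hand with metabolic and protein folding enzymes, 9 were higher. Without Runx1 c-k/o replicate 2, 6 of the 11 kept their call. Ass1, the synthase that joins citrulline and aspartate to argininosuccinate, was at 12.3, 12.3 and 10.5 CPM in Cre-only and at 28.1, 27.9 and 23.1 CPM in Runx1 c-k/o samples (1.17 ± 0.10, adjusted p = 0.000184). Amd2, of polyamine synthesis, rose from 0.0964, 0.342 and 0.496 to 2.58, 2.65 and 1.86 CPM (2.96 ± 0.42, adjusted p = 0.00387), and reads could be shared with its close copy Amd1. Pisd-ps1, a copy of the phosphatidylserine decarboxylase gene, fell from 216, 222 and 206 to 131, 110 and 118 CPM (−0.84 ± 0.10, adjusted p = 0.000815). It is annotated as a processed transcript, not as a coding gene, and its reads could be shared with the parent gene. Ass1 and Pisd-ps1 were called under all 14 alternatives. Picked after their values were seen, the adenosine kinase gene Adk (0.69), the glutamate decarboxylase gene Gad1 (0.86), the histidase gene Hal (3.11), the transhydrogenase gene Nnt (0.51) and Pdia4, of disulfide formation in the endoplasmic reticulum (0.42), were higher too.

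Of 11 called genes for secreted, adhesion and matrix proteins, 4 were higher and 7 lower. Prss12, the serine protease neurotrypsin, had 78 reads in the controls, at 1.78, 1.08 and 1.36 CPM, and 4 reads in the knockout, a ratio of 17.1 with a 95% counting interval from 6.4 to 64.1. Serpine2, a serine protease inhibitor, rose from 1.64, 2.16 and 2.11 to 4.80, 7.63 and 7.96 CPM (1.79 ± 0.26, adjusted p = 0.00446). Neither reached 10 CPM in any sample. Nid1, a basement membrane linker picked after its values were seen, was more abundant, at 14, 15.0 and 16.3 against 48.9, 41.2 and 45.7 CPM (1.59 ± 0.29, adjusted p = 0.0179).

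Among genes not classed, Kctd14 rose from 8.72, 8.48 and 10.2 to 21.2, 20.1 and 18.7 CPM (1.13 ± 0.15, adjusted p = 0.00212) and 5430427O19Rik fell from 35.4, 39.9 and 36.6 to 18.8, 21.7 and 20.8 CPM (−0.87 ± 0.12, adjusted p = 0.00369). Dmwd, a WD-repeat gene of little-known function, had the smallest p-value of all genes, at 6.79, 9.34 and 10.4 CPM in Cre-only and 138, 125 and 126 CPM in Runx1 c-k/o samples (3.88 ± 0.17, adjusted p = 3.74e-07). It lies in a run of called neighbours. At chr7:19661598-19683694 of mm9, Dmwd, Dmpk and Six5 were the tested genes and all 3 rose, Dmpk, a kinase gene known for the repeat expanded in myotonic dystrophy and picked after its values were seen, from 7.57, 7.23 and 11.1 to 34.8, 35.2 and 34.8 CPM. Altogether 49 of the 202 genes lay in 21 runs of at least 2 called genes no more than 500 kb apart, 12 of them in one direction and 9 in both. Genes of these runs that no other rule names were picked after their values were seen. On chromosome 10, Tmem26, Rhobtb1 and A930033H14Rik rose, and were the tested genes of that span. A930033H14Rik overlaps Rhobtb1 on the other strand, as Gm8093 overlaps Cgas in another run. The strand setting of the counts is not known, so reads may be shared within such pairs. On chromosome 8, Rbpms, Leprotl1 and Saraf rose among 5 tested, and on chromosome 5, Rundc3b, Abcb1a and Abcb1b fell among 4. On chromosome 16, Cd200 rose while Btla, Abhd10 and Plcxd2 fell within the same span of 7 tested genes. How often called genes neighbour each other by chance was not tested, and the share called was highest on chromosomes 16 (3.5%) and 12 (3.21%). Within 5 Mb of Runx1 itself, 57 genes were tested and Ifnar1 and Il10rb were called. That is 3.5%, the same share as on chromosome 16 as a whole, beside 1.49% of all tested genes. Within 10 and 20 Mb these same genes made up 2.78% and 2.5% of those tested.

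Immunoglobulin variable genes were called in both directions, and some processed copies of genes differed by large factors. Ighv1-14 rose from 0.0964, 0.228 and 0.310 to 2.93, 4.72 and 7.17 CPM (4.55 ± 0.50, adjusted p = 0.000757), and Ighv1-50 fell from 14.6, 13 and 12.6 to 8.43, 8.01 and 7.57 CPM (−0.74 ± 0.11, adjusted p = 0.00469). Of 186 variable genes 3 rose and 3 fell, which is 3.23%, beside 1.49% of all tested genes. The median was 0.26 and lay between 0.19 and 0.31 in all alternatives. In 70 of the 186 all 3 c-k/o samples lay above the controls and in 33 below, beside 12% and 11.6% of all tested genes. At an unadjusted p under 0.05 stood 57 higher and 26 lower, beside 817 and 679 of all 13538. The others called were Ighv2-9 (1.70) and Igkv1-135 (0.49), which were higher, and Ighv8-8 (−0.87) and Ighv9-1 (−0.76), which were lower. Without Cre-only replicate 1, Cre-only replicate 2 or c-k/o replicate 3, 1 was called in each direction, without Cre-only replicate 3 it was 1 higher and 2 lower, and 1 RUVs factor in DESeq2 called 13 higher and 5 lower. Among 40 ribosomal protein pseudogenes Rps13-ps1 had 665 reads in the controls, at 7.32, 24.4 and 5.21 CPM, and 6 in the knockout (ratio 96.9, 95% counting interval from 44.3 to 265), and Rpl30-ps9 had 32 reads and 1 read. Cre-only replicate 2 held 429 of the 665 reads, and without it the log2 fold change of Rps13-ps1 was −5.56, against −6.53 with it. Leaving out any one sample left 1 gene of that list called. The list's median was 0.39, with 32 of 40 above 0, and 0.15 without c-k/o replicate 2. Of the other copies and noncoding RNAs, Gm10036 (3.51) and Hmgn2-ps1 (2.38) were higher and the antisense RNA gene Cep83os (−1.62) was lower. In the other direction from Rps13-ps1, Ndufa12-ps had 5 and 203 reads, and Tdg-ps2 rose from 0.289, 0.569 and 0.496 to 5.86, 8.60 and 3.65 CPM. Reads of such copies can be shared with their parent genes, so these values are uncertain.

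Promoters were searched for the core letters of the RUNX site. The windows, from RefSeq on GRCm38.p6, run from 250 bases before to 50 bases after a gene's start, and the motifs TGTGGT and TGCGGT were searched on both strands. Promoters were matched by symbol for 74 of the 99 higher and 70 of the 103 lower genes. At least 1 match was found in 25% of the 108 promoters of the higher genes, 24.2% of the 91 of the lower genes, 21.8% of the 12464 of all tested genes and 22.4% of all 32851 RefSeq promoters. Counted per gene, at least 1 promoter held a match in 33.8% of the higher, 27.1% of the lower and 30.6% of all called genes, against 25.3% of all tested genes, with 1.46, 1.30, 1.38 and 1.27 promoters per gene. No test was made of these shares. Shown are those of 4 genes, the first 2 in each direction by p-value that hold a match, with the matches in capitals (reverse-strand matches read ACCACA or ACCGCA). They lie at chr7:19075950-19076249 on the plus strand for Dmwd, chr2:35691744-35692043 on the plus strand for Dab2ip (1 of its 4 promoters), chr3:123446663-123446962 on the plus strand for Prss12 and chr19:29410669-29410968 on the plus strand for Pdcd1lg2.
Dmwd: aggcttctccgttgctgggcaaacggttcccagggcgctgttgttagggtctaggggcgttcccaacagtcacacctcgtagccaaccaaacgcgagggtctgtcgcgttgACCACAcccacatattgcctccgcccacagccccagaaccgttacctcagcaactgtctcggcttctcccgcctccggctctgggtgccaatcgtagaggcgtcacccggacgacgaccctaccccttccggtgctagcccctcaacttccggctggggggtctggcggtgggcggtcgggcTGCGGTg
Dab2ip: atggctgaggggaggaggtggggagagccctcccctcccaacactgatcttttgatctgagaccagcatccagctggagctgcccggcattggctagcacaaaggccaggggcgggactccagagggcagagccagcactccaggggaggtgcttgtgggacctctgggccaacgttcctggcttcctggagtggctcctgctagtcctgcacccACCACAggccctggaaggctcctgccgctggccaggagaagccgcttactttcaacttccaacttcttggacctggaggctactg
Prss12: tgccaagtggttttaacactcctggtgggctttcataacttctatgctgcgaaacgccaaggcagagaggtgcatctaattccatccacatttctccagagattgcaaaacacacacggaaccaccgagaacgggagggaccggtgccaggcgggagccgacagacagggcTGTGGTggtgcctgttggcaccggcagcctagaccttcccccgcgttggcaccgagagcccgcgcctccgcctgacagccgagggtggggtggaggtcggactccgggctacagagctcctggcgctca
Pdcd1lg2: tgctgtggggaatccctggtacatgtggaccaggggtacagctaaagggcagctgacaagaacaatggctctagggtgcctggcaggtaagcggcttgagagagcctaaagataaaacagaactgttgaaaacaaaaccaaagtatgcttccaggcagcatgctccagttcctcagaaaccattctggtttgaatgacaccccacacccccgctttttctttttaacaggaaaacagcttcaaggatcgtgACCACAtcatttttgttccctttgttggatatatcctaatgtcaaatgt
The window of Dmwd holds 2 matches and the others 1 each, and a match says only that these letters occur there.

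After 3 h of anti-IgM and IL-4, in the 6 other samples, 375 genes (2.77%) differed between the genotypes, 1.47% higher and 1.3% lower. Of the 202 genes called at rest, 91 were called at 3 h in the same direction (43 higher, 48 lower), which is 45% of the resting and 24.3% of the 3-h calls, 110 were not called at 3 h, and 188 kept their sign at any p. A gene called at one time and not at the other is not thereby shown to differ between them, and the test of that difference, the interaction, called 11 genes (0.0813%; 0.0665% toward higher and 0.0148% toward lower values at 3 h), 4 of them from the 202. Differences that were present at both times included Dmwd (3.88 at rest, 4.43 at 3 h), Cd200 (1.18 and 1.80), Ccr6 (−1.59 and −2.03), Il9r (−2.25 and −2.18), Eya1 (−1.92 and −2.02), St6gal1 (−0.88 and −0.84) and Gsn (−1.04 and −1.05). Differences seen at rest with values near 0 at 3 h included Dusp3 (0.68 and 0.04), Cnr2 (0.75 and −0.06), Plekhg3 (−0.82 and 0.08) and Galnt6 (−0.56 and −0.05), without a call by the interaction for any of them.

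**Figure D5:**
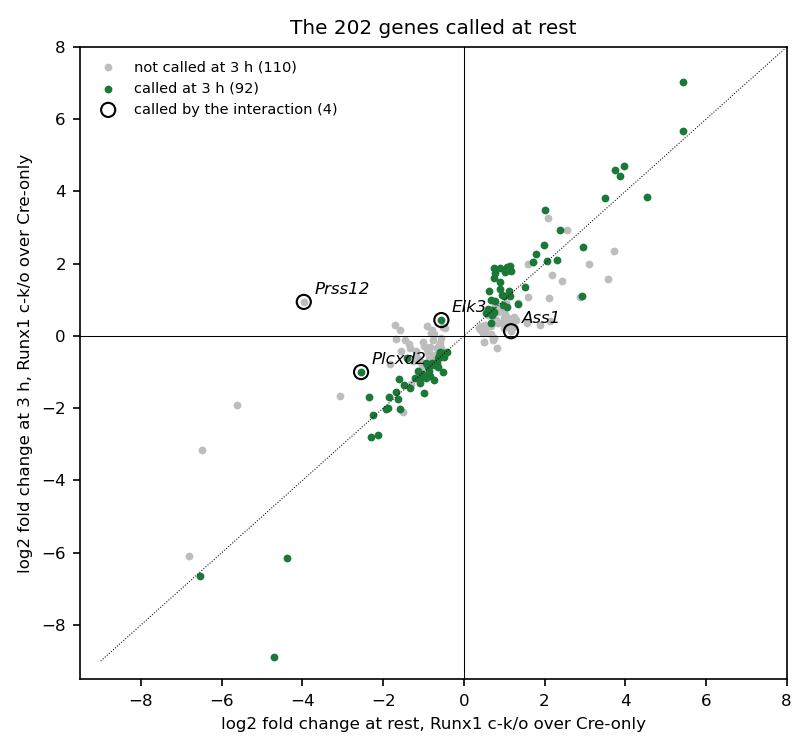
Log2 fold change of Runx1 c-k/o over Cre-only cells at 3 h of activation (y axis) against that at rest (x axis) for the 202 genes called at rest, with genes also called at 3 h in green, the others in grey and the 4 called by the interaction ringed. The dotted line marks equal values, and Prss12 lies farthest from it among the ringed genes, at −3.97 at rest and 0.94 at 3 h.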

How the data were processed

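RNA of splenic B cells was sequenced in 12 samples, 3 in each of 4 groups. The authors made poly(A) libraries with a stranded kit, processed reads with CASAVA 1.8.4, aligned them with TopHat2 2.0.11 to mm9 and deposited read counts per Ensembl gene from featureCounts; its strand and multiple-mapping settings are not given in the sources used here. Genes were fitted on these counts in all 4 groups, which share 1 estimate of the spread, with edgeR 4.0.16 (R 4.3.3) after filterByExpr (minimum count 10) and TMM scaling, by the robust quasi-likelihood test. Genes with a Benjamini-Hochberg adjusted p under 0.05 are called. The CPM values and fold changes were computed here. Of the gene identifiers, 37205 had a symbol, and no row was a spike-in.

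Named were the RUNX genes, the 25 higher and 25 lower genes of smallest adjusted p, called members of the gene lists, cell type markers and genes called by the interaction; others are said to be picked after their values were seen. Comparison and lists were chosen with earlier results of these data, and the study's gene tables, known. Alternatives were DESeq2 1.42.0, DESeq2 size factors, other count filters, 1 RUVs factor, the replicate block, the 6 resting samples alone and leaving out each sample. The scripts were tested on simulated data.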

Additional observations from a re-analysis of the deposited data

Results flagged for a closer look

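For 4 of the 202 genes called at rest, the genotype difference at 3 h of activation was unlike that at rest by the interaction test (edgeR's quasi-likelihood test, adjusted over all genes). The difference at 3 h minus that at rest was 4.91 on the log2 scale for Prss12 (adjusted p = 0.0148), which rests on 4 reads in the resting knockout. It was 1.55 for Plcxd2 (adjusted p = 0.0297), lower at both times. It was 1.00 for Elk3 (adjusted p = 0.00814), lower at rest (−0.56) and higher at 3 h (0.44, adjusted p = 0.0174). It was −1.04 for Ass1 (adjusted p = 0.0165), higher at rest and at 0.13 at 3 h.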

How the results depend on the processing

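The number of genes called at rest depended on the test. DESeq2's Wald test called 378, 1 RUVs factor called 524 in edgeR and 611 in DESeq2, and each of the 3 kept 199 of the 202 genes. Leaving out one resting sample at a time gave 81 to 140 calls (86, 81 and 93 without Cre-only replicates 1, 2 and 3, and 129, 140 and 88 without Runx1 c-k/o replicates 1, 2 and 3). Of the 202 genes, 64 were called in every alternative that gave them a value, 103 in at least 10 of 14, and 0 changed sign. DESeq2 size factors gave 201, no count filter 189, at least 10 counts in every sample 142 and the 6 resting samples alone 223. With the replicate number as a block, 140 genes were called at rest (136 of the 202), 275 at 3 h and 12 by the interaction. For resting samples, deviations from the group mean were correlated across genes between the genotypes. Same-numbered samples correlated at 0.0111 to 0.0680, and 5 of 6 samples were closest to their own number. These correlations were low, and the numbers were not taken as pairs in the main fit. Pairing of resting with 3-h samples was not checked. With 3 samples a group, small differences in scarce genes may be missed.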
